A study of Mus musculus with 33 samples.

Results

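Collagens, laminins and the genes of elastic fibers were followed through birth in whole lung and liver of mice. The members were taken by name. Every probe set of the Affymetrix MGU74Av2 array was kept whose annotated symbol was a collagen chain (Col), a laminin chain (Lama, Lamb or Lamc) or Eln, Fbn1, Fbn2, Lox, Loxl1, Sparc, Serpinh1, Fn1, Fmod, Dcn, Bgn, Lum, Nid1 or Spock2. This gave 76 probe sets of 53 genes, out of 12488 probe sets and 8252 genes named by a single symbol. Collagens made up 44 probe sets of 31 genes, laminins 14 of 9 genes and the other members 18 of 13 genes, and 19 genes had more than 1 probe set. No probe set matched Fbn1, which was not analysed here.

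The mice were labelled C57/BL, C57/Black or BL/57, and 1 sample carried no strain label. The study's methods give timed-pregnant C57B/6J dams. Each of the 11 groups held 3 arrays. Lungs in room air came from fetuses of day 21 (F21) and from newborns 2, 6, 12 and 24 h old. Lungs of 10% oxygen were taken at F21, when the dam had been in 10% oxygen for 12 h, and from pups born into 10% oxygen at 2 h and 6 h. Livers were taken at F21, 2 h and 6 h. Their labels name no oxygen level, and the study describes the livers as those of birth in room air. The sources used here do not say which litter an array came from, so the p-values measure the spread between these samples. The RNA came from whole organs, in which fewer cells of a type and less RNA per cell cannot be told apart. Values are MAS5 signals, a brightness on a linear scale that the authors scaled to the same target of 100 on every array. They are relative, and the levels of different probe sets are not set against each other.

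Collagens are triple helices of alpha chains. Fibrillar types I, III and V form the cables of the interstitium, type IV forms the mesh of basement membranes, type VI makes beaded filaments between these compartments, and types XV and XVIII carry heparan sulfate or chondroitin sulfate chains at the outer face of basement membranes. Laminins are cross-shaped trimers of an alpha, a beta and a gamma chain that cells bind through integrins. Elastin is secreted as a soluble monomer, laid down on fibrillin microfibrils and crosslinked by lysyl oxidases. In the lung, elastic fibers at the tips of growing septa are known for their place in alveolar formation, which in mice takes place mainly after birth.

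Promoter sequence is shown for genes on which the results below turn. RefSeq windows on GRCm38.p6 covered 33 of the 53 genes, with 37 windows, and the 250 bases before each transcription start were searched on both strands for the TATA box letters TATAAA, the CCAAT box, the Sp1-type letters GGGCGG and the core ACGTG of hypoxia response elements, all in capitals. No motif contains another, although neighbouring matches may share end bases. Col18a1 had 2 windows, with starts 52825 bases apart, which is the reason both are shown. The upstream window (chr10:77166531-77166780, minus strand) held CCAAT on the opposite strand, 210 bases before the start, and GGGCGG on the opposite strand at 61, 43 and 33 bases. The other window (chr10:77113706-77113955, minus strand) held none of the 4 motifs.
Col18a1, upstream start: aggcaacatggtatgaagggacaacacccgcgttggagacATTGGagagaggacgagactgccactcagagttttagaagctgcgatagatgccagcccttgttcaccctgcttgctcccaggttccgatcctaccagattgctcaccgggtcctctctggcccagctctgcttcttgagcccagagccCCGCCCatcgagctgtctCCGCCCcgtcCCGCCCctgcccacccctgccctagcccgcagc
Col18a1, downstream start: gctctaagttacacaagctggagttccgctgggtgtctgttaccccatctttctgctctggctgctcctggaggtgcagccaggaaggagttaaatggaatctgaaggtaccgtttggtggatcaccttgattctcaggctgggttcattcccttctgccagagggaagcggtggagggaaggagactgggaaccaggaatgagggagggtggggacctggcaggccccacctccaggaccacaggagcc
Col15a1, the other multiplexin collagen, is shown beside Col18a1 because both probe signals differed with oxygen at F21 (chr4:47207762-47208011, plus strand). It held none of the motifs.
Col15a1: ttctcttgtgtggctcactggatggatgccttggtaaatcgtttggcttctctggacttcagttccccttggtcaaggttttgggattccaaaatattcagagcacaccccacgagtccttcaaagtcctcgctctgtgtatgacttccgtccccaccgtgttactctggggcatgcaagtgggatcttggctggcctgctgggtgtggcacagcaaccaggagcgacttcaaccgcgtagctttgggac
Serpinh1 and Col6a3, which fell after birth, and Spock2, which rose, follow. Serpinh1 (chr7:99353240-99353489, minus strand) held ACGTG on the opposite strand at 171 bases and GGGCGG at 37. Col6a3 (chr1:90843972-90844221, minus strand) held none, and Spock2 (chr10:60106007-60106256, plus strand) held ACGTG at 65 bases.
Serpinh1: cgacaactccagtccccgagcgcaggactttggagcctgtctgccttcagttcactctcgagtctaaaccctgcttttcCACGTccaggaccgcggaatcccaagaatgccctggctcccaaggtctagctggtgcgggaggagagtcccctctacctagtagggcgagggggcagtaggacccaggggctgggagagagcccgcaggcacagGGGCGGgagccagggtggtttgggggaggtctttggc
Col6a3: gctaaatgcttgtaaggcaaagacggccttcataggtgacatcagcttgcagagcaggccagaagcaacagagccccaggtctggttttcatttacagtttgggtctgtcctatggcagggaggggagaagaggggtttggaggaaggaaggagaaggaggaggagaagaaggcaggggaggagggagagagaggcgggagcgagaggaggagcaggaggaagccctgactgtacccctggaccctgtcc
Spock2: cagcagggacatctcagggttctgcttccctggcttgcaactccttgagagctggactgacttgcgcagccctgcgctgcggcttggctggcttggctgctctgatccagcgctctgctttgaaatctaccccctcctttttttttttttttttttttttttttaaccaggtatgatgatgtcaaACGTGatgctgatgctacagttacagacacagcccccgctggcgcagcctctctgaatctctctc
Of all 32851 windows in the table, 12.4% held TATAAA, 33.8% held CCAAT, 32.7% GGGCGG and 16.6% ACGTG. Of the 37 member windows, 13.5% (5), 29.7% (11), 45.9% (17) and 16.2% (6) did. These are matches of letters and not sites. The probe sets of the array do not tell the Col18a1 starts apart by name.

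Arrays of a group resembled each other less in 10% oxygen than in room air. Pearson's r across probe sets was 0.749 to 0.825 within groups of 10% oxygen, 0.896 to 0.950 in room air lungs and 0.867 to 0.895 in livers. The Gapdh 3' to 5' signal ratio, a measure of how intact the RNA was, ran from 0.73 to 1.15 in room air lungs, from 1.30 to 1.86 in livers and from 1.21 to 9.40 in lungs of 10% oxygen. The second F21 lung of 10% oxygen carried liver transcripts: its summed signal over 4 hepatocyte genes was 2805, against 159 and 190 in the other arrays of its group and 93665 to 105859 in F21 livers. Lung epithelial markers checked the organ labels, with sums of 22960 to 78601 in lungs and 154 to 349 in livers. A probe set was tested with limma when it was among the top 40% of its array in at least 3 arrays, with signals under 10 set to 10, and was called at an adjusted p under 0.05 over all probe sets tested. Of the 76 members, 58 probe sets of 43 genes were tested in lung, 36 in liver and 61 in the fit of both organs. The 18 not tested in lung belonged to Col2a1, Col4a3, Col8a1, Col10a1, Col11a1, Col11a2, Col17a1, Col19a1, Col22a1 and Nid1, which had no other probe set, and to second probe sets of Col9a3, Col12a1, Col18a1, Fmod, Lama4, Lamc1 and Spock2.

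Before birth, most tested probe sets of these structural genes were higher in lung than in liver. Col18a1 and Dcn were lower, and Fbn2, Fn1 and Col15a1 were not called. At F21, 37 of 61 tested member probe sets were higher in room air lung than in liver and 5 were lower, so that 42 (68.9%) were called, against 28.0% of all 7636 probe sets tested (16% higher and 11.9% lower). The calls cover 29 genes, and probe sets of the same gene are not independent. The median log2 difference, lung over liver, was 1.61 over the members and 0.14 over all probe sets tested. Without regard to the filter, 41 of the 76 members had every lung array above every liver array and 7 had every lung array below, against 17.5% and 14.3% of all 12422 probe sets. By role, all 5 type VI and VII probe sets, 9 of 10 fibrillar, 3 of 4 type IV, 5 of 6 laminin alpha, 4 of 5 laminin beta and the 1 laminin gamma probe set tested were higher in lung, and none of the 5 fibril-associated ones was called.

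Eln encodes elastin. Its probe set 92836_at read 9258, 11432 and 8319 in the 3 F21 lungs and 349, 359.7 and 571 in the livers, a fold of 23.1 (log2 4.53, standard error 0.21, adjusted p = 4.78e-17). Every lung array lay far above every liver array. Lox, the lysyl oxidase that crosslinks elastin and collagen, read 261, 217 and 477 in lung and 8.0, 2.2 and 45.6 in liver (log2 4.18, standard error 0.53, adjusted p = 1.76e-07). The liver values of 8.0 and 2.2 lay under the floor of 10, so that the size of this difference, as of others with such values, depends on the floor. Fbn2, fibrillin-2 of the fetal microfibril, read 46.1, 48.2 and 66.3 in lung and 71.9, 64.7 and 51.0 in liver (log2 -0.23, standard error 0.74, adjusted p = 0.861), and the groups overlapped.

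Among laminin probe sets, 1 of Lama3 and 1 of Lama5 had the widest differences. Lama3 encodes the alpha chain of the epithelial laminin-332, and its probe set read 320.0, 384 and 432 in lung against 9.5, 7.6 and 17.4 in liver (log2 4.97, standard error 0.32, adjusted p = 6.17e-14). Lama5 encodes an alpha chain of many adult basement membranes, and read 524, 655 and 782 against 19.4, 15.9 and 31.9 (log2 4.91, standard error 0.37, adjusted p = 2.47e-12). No liver array came near a lung array at either probe set. The other Lama5 probe set, 161702_f_at, differed less (log2 1.55, adjusted p = 0.00276). Lamc1, the gamma chain shared by most laminins, read 347, 230.1 and 369 in lung and 44.6, 24.4 and 57.8 in liver (log2 2.96, standard error 0.46, adjusted p = 8.20e-06). Lamb1, the beta chain common in fetal laminins, read 255, 266 and 252 and 89.7, 102 and 66.1 (log2 1.61, standard error 0.28, adjusted p = 3.07e-05). These chains too were separated without overlap.

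The main chains of type I collagen followed. Col1a1 read 1454, 1473 and 1983 in F21 lung and 321, 298 and 362 in F21 liver at 103709_at (log2 2.31, standard error 0.21, adjusted p = 2.11e-10). Col1a2 read 1081, 1375 and 1277 and 92.6, 152 and 209 at 101130_at (log2 3.11, standard error 0.25, adjusted p = 1.98e-11). Its second probe set, 161156_r_at, gave a smaller difference (log2 0.77, adjusted p = 0.00595). Col3a1, the chain of type III collagen, read 580.2, 499 and 671 in lung and 117, 104 and 127 in liver (log2 2.33, standard error 0.21, adjusted p = 1.75e-10). All of these lung arrays lay above all liver arrays.

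Type IV and type VI collagen were higher in lung as well. Col4a1 read 2576, 2629 and 1874 in lung and 259, 359 and 388 in liver (log2 2.82, standard error 0.21, adjusted p = 1.27e-12), and Col4a2 2144, 2291 and 1644 and 356, 264 and 317 (log2 2.69, standard error 0.19, adjusted p = 8.23e-13). Col6a3, the long chain of type VI collagen, read 1761, 1848 and 2075 in lung and 122, 29.7 and 170.0 in liver (log2 4.47, standard error 0.42, adjusted p = 5.63e-10). The liver arrays of Col6a3 ranged more widely than those of type IV, yet none approached lung. Serpinh1, the collagen chaperone HSP47 of the endoplasmic reticulum, read 781, 796 and 1006 and 97.5, 69.7 and 95.4 (log2 3.30, standard error 0.43, adjusted p = 3.35e-07). Sparc, a matricellular protein that binds collagen, read 660.4, 644 and 824 and 93.6, 214 and 193 (log2 2.17, standard error 0.25, adjusted p = 2.20e-08). Spock2, the proteoglycan testican-2, read 153, 175 and 96.9 and 10.5, 33.4 and 13.7 (log2 3.03, standard error 0.47, adjusted p = 6.22e-06).

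**Figure D1:**
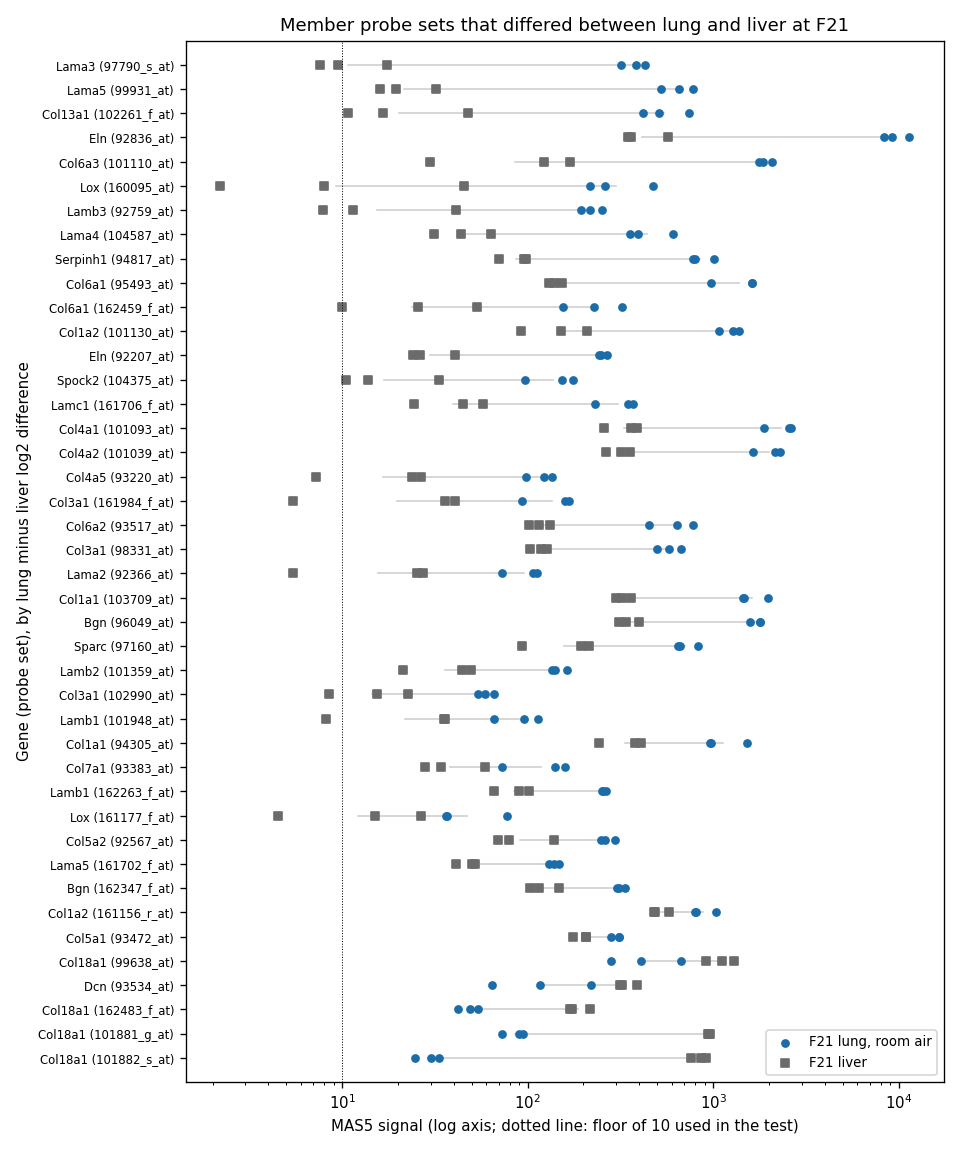
Signals at F21 of the 42 member probe sets called between room air lung and liver, on a log axis, with 1 row per probe set, dots for the 3 lung arrays and squares for the 3 liver arrays. In 37 rows the lung dots lie to the right, up to Lama3 at log2 4.97, and in the 5 rows of Col18a1 and Dcn the liver squares do.

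Col18a1 ran the other way. This gene encodes the chain whose cleaved end is endostatin, and all 4 of its tested probe sets were higher in liver. At 101882_s_at the livers read 914, 758 and 866 and the F21 lungs 24.8, 33.1 and 30.2 (log2 -4.85, standard error 0.44, adjusted p = 2.38e-10), and at 101881_g_at 968, 935 and 953 and 72.6, 94.7 and 90.0 (log2 -3.48, standard error 0.42, adjusted p = 6.36e-08). At 99638_at both organs gave signal, 1298, 1111 and 918 in liver and 408, 670.3 and 281 in lung (log2 -1.37, standard error 0.29, adjusted p = 3.99e-04). The probe sets thus shared a direction and differed in size. The call of 162483_f_at (log2 -1.95, adjusted p = 0.0235) was lost without room air F21 array 1 or 3 or liver F21 array 3 (log2 -1.97 to -1.84, adjusted p = 0.0545 to 0.0714). Dcn, decorin, a small proteoglycan on collagen fibrils, was also higher in liver, at 388, 315 and 325 against 64.2, 117 and 220.1 (log2 -1.53, standard error 0.37, adjusted p = 0.00211). Fn1, fibronectin, which hepatocytes secrete into plasma, read 1069.6, 1069.8 and 935 in lung and 1128, 1388 and 1119.8 in liver and was not called (log2 -0.24, 95% interval -0.58 to 0.11, adjusted p = 0.328). Col15a1 read 69.8, 69.9 and 63.0 and 16.1, 33.7 and 37.1 and was not called either (log2 1.31, adjusted p = 0.0655), although its groups did not overlap. The calls of Lox 161177_f_at (log2 1.56, adjusted p = 0.0429), Col7a1 (log2 1.62, adjusted p = 0.0385) and Col5a1 93472_at (log2 0.62, adjusted p = 0.00989) were lost respectively without room air F21 array 1, 2 or 3 or liver F21 array 2 or 3 (log2 1.20 to 1.74, adjusted p = 0.0525 to 0.197), without room air F21 array 1 or 3 or liver F21 array 1 or 2 (log2 1.39 to 1.54, adjusted p = 0.0977 to 0.137) and without liver F21 array 2 (log2 0.55, adjusted p = 0.0521).

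After birth in room air, few structural genes of the matrix were called as changed in the lung within 24 h. Serpinh1 and Lama3 were called lower at 12 h and 24 h, Col6a3 was called lower at 24 h and Spock2 higher at 12 h. Elastin, type IV and type I collagen did not pass the test at any time. All 4 times were compared with the same 3 F21 lungs, so that these comparisons are not independent. At 2 h, 3 of 58 tested members were called, all higher (5.17%, against 4.24% of all 6930 probe sets and 1.47% higher). At 6 h limma called none (1.02% of all), with 8 of 58 at an unadjusted p under 0.05, against 11.7% of all. The methods' t-test called 3 there at its threshold, against 302 of all 6930, and 0 after Benjamini-Hochberg adjustment. At 12 h, 3 were called, 1 higher and 2 lower (5.17%, against 1.34% of all, 0.880% higher and 0.462% lower). At 24 h, 3 were called, all lower (5.17%, against 0.577% of all and 0.144% lower). The median log2 change over the members was -0.06, -0.12, -0.05 and -0.19 at 2, 6, 12 and 24 h, and 0.02, -0.04, -0.02 and -0.04 over all probe sets tested.

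Counted without the filter, more members lay wholly below F21 than wholly above it at 12 h and 24 h. At 12 h, 4 of the 76 had every array above every F21 array and 16 every array below, against 6.99% and 8.07% of all probe sets. At 24 h the counts were 3 and 17, against 5.63% and 8.36%. At 2 h they were 10 and 10, against 11.4% and 11.6%, and at 6 h 4 and 11, against 6.81% and 8.98%.

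Serpinh1 read 781, 796 and 1006 at F21 and 582, 609 and 503 at 2 h. It then read 518, 536 and 335 at 6 h, 299, 422 and 259 at 12 h and 367, 502 and 213 at 24 h. Every array after birth lay below every F21 array. The change was log2 -1.42 at 12 h (standard error 0.25, adjusted p = 0.00485) and -1.33 at 24 h (standard error 0.25, adjusted p = 0.0128). At 2 h and 6 h it was -0.60 and -0.92 and was not called (adjusted p = 0.187 and 0.0725). The 24 h call was lost without 24 h array 3 or room air F21 array 1 or 3 (log2 -1.40 to -0.99, adjusted p = 0.0535 to 0.134), whereas the 12 h call held without each array in turn.

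Lama3 read 320.0, 384 and 432 at F21, 269.8, 220.4 and 224 at 2 h and 246, 177 and 247 at 6 h. At 12 h it read 158, 169 and 106 and at 24 h 237, 162 and 114. All later arrays were lower than all F21 arrays. The change was log2 -1.41 at 12 h (standard error 0.26, adjusted p = 0.00491) and -1.20 at 24 h (standard error 0.26, adjusted p = 0.0303). The 12 h call held without each array, and the 24 h call was lost without 24 h array 3 or room air F21 array 1, 2 or 3 (log2 -1.31 to -0.94, adjusted p = 0.0702 to 0.235). Of the other laminin alpha chains, Lama5 at 99931_at read 524, 655 and 782 at F21 and 479 to 678 over the 12 later room air arrays. None of the 5 laminin beta probe sets tested was called in room air.

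Col6a3 read 1761, 1848 and 2075 at F21 and 1304, 1354 and 1097 at 2 h. Its signals were 1172, 1275 and 967 at 6 h, 1219, 1069.7 and 524 at 12 h and 1052, 971 and 285 at 24 h. The third 24 h array was far below the other 2, and all arrays after birth lay below F21. The change at 24 h was called (log2 -1.51, standard error 0.34, adjusted p = 0.0397), but was lost without 24 h array 3 or room air F21 array 1, 2 or 3 (log2 -1.56 to -0.90, adjusted p = 0.111 to 0.247). At 12 h it was log2 -1.10 (adjusted p = 0.124). The partner chains Col6a1 and Col6a2 were not called at 12 h or 24 h. The summed mesenchyme markers were 1759 to 2034 at F21, 1349 to 1603 at 12 h and 633 to 1665 at 24 h, where the first array was the lowest. The part of these markers in the falls was not tested.

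Spock2 was the member that rose late. It read 153, 175 and 96.9 at F21, 409, 196 and 172 at 2 h and 151, 348 and 196 at 6 h. At 12 h it read 503, 619.9 and 506, above every F21 array, and at 24 h 229, 366 and 580.5. The rise at 12 h was 3.93-fold (log2 1.98, standard error 0.39, adjusted p = 0.00836) and was lost without 12 h array 2 or room air F21 array 3 (log2 1.72 to 1.88, adjusted p = 0.0508 to 0.0668). At 24 h the difference was of the same sign and not called (log2 1.41, adjusted p = 0.0987). Summed lung epithelial markers were 51899 to 67414 at F21 and 52330 to 56478 at 12 h, a sum made up mostly of Sftpc. Of these markers Scgb1a1, the club cell secretoglobin, read 2730.7, 2743.8 and 798.2 at F21. At 12 h it was higher, at 7173.1, 9096.1 and 8349.5, without overlap. Sftpc read 54366.6, 44418.1 and 43574.7 at F21 and was lower at 12 h, at 39707.5, 34069.6 and 33975.2, also without overlap. The arrays of Sftpb and of Ager overlapped between F21 and 12 h. The part of these markers in the rise of Spock2 was not tested.

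The 3 calls at 2 h were of other collagens, and none of them was called at 6 h. Their share of the members was close to that of all probe sets called. Col12a1, a fibril-associated collagen of loaded tissues, read 24.4, 18.6 and 7.3 at F21 and 88.7, 58.9 and 98.4 at 2 h (log2 2.28, standard error 0.63, adjusted p = 0.0393), and 33.2, 30.8 and 20.0 at 6 h. The groups were separate at 2 h, but the F21 values lay near the floor and the call was lost without any 1 of the 6 arrays (log2 1.91 to 2.55, adjusted p = 0.0559 to 0.194). Col9a2, a type IX chain known from cartilage, read 142, 95.4 and 135 at F21, 268, 209 and 267 at 2 h and 103, 104 and 132 at 6 h (log2 1.01, standard error 0.25, adjusted p = 0.0185 at 2 h). Its call was lost without room air 2 h array 1 or 3 or room air F21 array 2 (log2 0.84 to 0.96, adjusted p = 0.0861 to 0.0938). Col6a1 at 162459_f_at read 227, 322 and 155 at F21 and 609, 484 and 310.1 at 2 h, with overlapping groups (log2 1.01, standard error 0.29, adjusted p = 0.0439). It was lost without room air 2 h array 1 or 2 or room air F21 array 1 or 3 (log2 0.74 to 1.01, adjusted p = 0.102 to 0.248), and the other probe set of the gene was not called (log2 0.05, adjusted p = 0.935). Bacterial spike-in controls (BioB) were dimmer at 2 h, at 75.9 to 110.7, than at F21, at 226.6 to 529.4. They were also dimmer at 12 h (73.9 to 99.5) and 24 h (109.8 to 188.3) and close to F21 at 6 h (258.8 to 501.4). Their part in these results was not tested. Summed lung epithelial markers were also lower at 2 h in room air, at 30294 to 35908, than at F21, at 51899 to 67414. The part of these markers was not tested either.

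**Figure D2:**
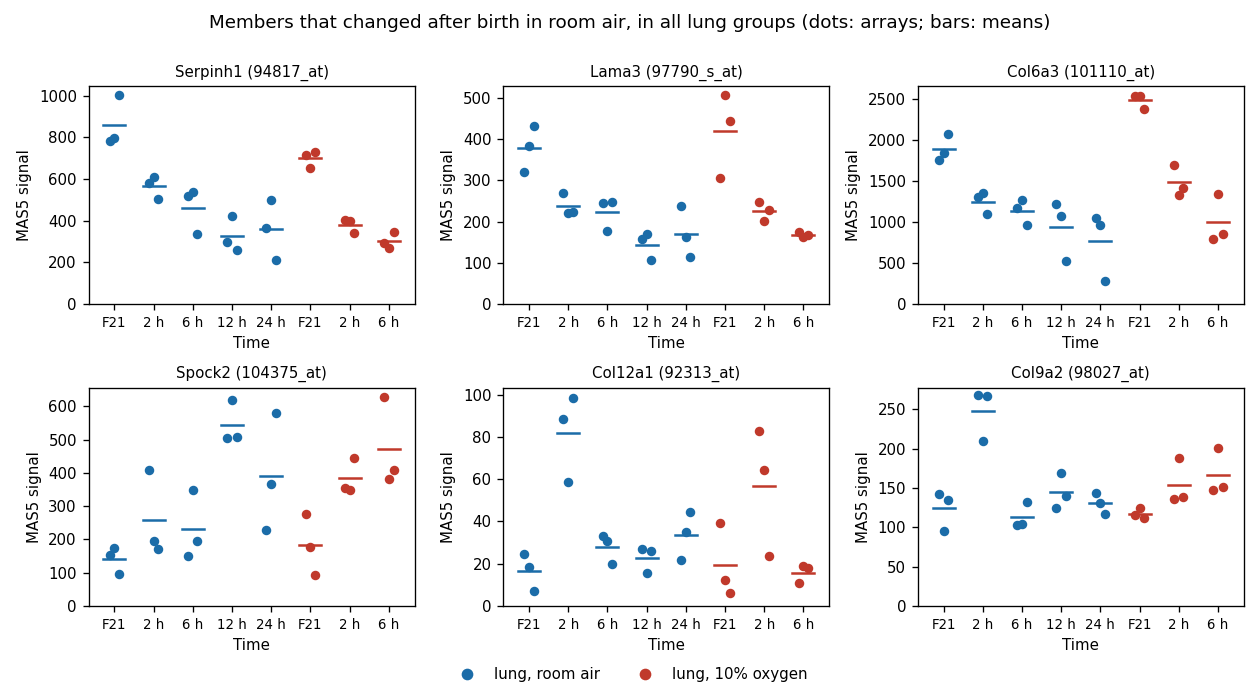
Signals on a linear axis from 0 of 6 member probe sets in the 8 lung groups, with dots for arrays and bars for group means. Serpinh1, Lama3 and Col6a3 are lower in every room air group after birth than at F21, Spock2 reaches 503.4 to 619.9 at 12 h, and Col12a1 and Col9a2 are high at 2 h in room air.

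Elastin stayed at a high signal throughout. In room air Eln at 92836_at read 9128, 8569 and 9089 at 2 h, 8570.5, 8539 and 7199 at 6 h, 11878, 10138 and 12117 at 12 h and 8906, 8841 and 12192 at 24 h. The arrays overlapped F21 at every time, and the changes ranged from log2 -0.25 at 6 h to 0.24 at 12 h with none called. The 95% interval at 24 h was -0.38 to 0.47. Lox was not called either, at 101 to 323 over the 12 arrays after birth against 217 to 477 at F21. Fbn2 read 8.5, 17.8 and 6.9 at 24 h (log2 -2.12, adjusted p = 0.172), with all 3 arrays under all F21 arrays and 2 under the floor.

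Type I, III and IV collagen did not pass the test after birth in room air. Col1a1 at 103709_at ranged over 1454 to 1983 at F21 and 939 to 2172 later, with a change at 24 h of log2 -0.07 (95% interval -0.51 to 0.37). Col1a2 at 101130_at ranged over 788 to 1223 after birth (log2 -0.22 at 24 h, interval -0.62 to 0.17), and Col3a1 at 98331_at over 390.0 to 634 (log2 -0.24, interval -0.64 to 0.16). Each overlapped its F21 range. Col4a1 read 1736 to 3245 after birth (log2 0.05 at 24 h, interval -0.39 to 0.49). Col4a2 read 3158, 2964 and 3059.6 at 12 h, above all F21 arrays, and was not called (log2 0.61, adjusted p = 0.162). Neither Lamc1 (275 to 484 after birth) nor Lamb1 at 162263_f_at (165 to 326) was called at any time. Sparc read 1219.7, 1153 and 1239.8 at 24 h, above every F21 array, and missed the threshold (log2 0.77, adjusted p = 0.125). Fn1 read 792, 741 and 617 at 24 h, below every F21 array, and missed it too (log2 -0.52, adjusted p = 0.204).

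Birth into 10% oxygen was compared with F21 lungs of dams kept in 10% oxygen. Probe sets of type I, III, VI, XV and XVIII collagen, Lama3, Serpinh1 and Fbn2 were among the 14 that fell by 6 h. At 6 h 17 of 58 tested members were called, 3 higher and 14 lower (29.3%, against 6.31% of all 6930 probe sets, 2.99% higher and 3.32% lower). At 2 h 4 were called, 1 higher and 3 lower (6.9%, against 2.66% of all, 1.37% higher and 1.28% lower). The median log2 change was -0.22 at 2 h and -0.41 at 6 h over the members, and -0.02 at both times over all probe sets. Without the filter, 7 of the 76 members had every 6 h array above and 19 every array below the F21 arrays, against 7.72% and 7.25% of all probe sets.

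These counts moved with the fit and with the baseline. Arrays of 10% oxygen differed more among themselves. When limma was fitted to them alone it called 6 members at 6 h and 0 at 2 h, against 133 and 36 of all 6930 probe sets. In the fit of all lungs, 21 members had an unadjusted p under 0.05 at 2 h, against 17.2% of all probe sets. Against the room air F21 lungs, 9 members were called at 6 h and 7 at 2 h, where 520 and 376 of all 6930 were. Without the F21 array that carried liver transcripts, 12 were called at 6 h and 2 at 2 h. Without F21 array 3 of 10% oxygen, 9 were called at 6 h and 1 at 2 h, and without the first 6 h array 9 at 6 h. Counts over all probe sets in these fits without an array are not reported here. F21 array 3 had the lowest lung epithelial markers of its group, with Ager at 1020.2 against 5579.1 and 2702.4 and Sftpb at 889.1 against 4959.0 and 2770.0. The 4 summed markers were 45828, 42420 and 22960 at F21 and 57340, 56358 and 53188 at 6 h, without overlap, and none was at 0. The 5 summed mesenchymal markers were 1646 to 2228 at F21 and 1238 to 1842 at 6 h. The part of these differences in the counts was not tested.

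Col15a1 had the largest change among the calls at 6 h. It read 212, 264 and 358 in F21 lungs of 10% oxygen, 68.7, 61.6 and 40.1 at 2 h and 10.4, 32.5 and 7.8 at 6 h. No array after birth reached the lowest F21 array, and 1 of the 6 h arrays was under the floor. The change was log2 -2.29 at 2 h (standard error 0.52, adjusted p = 0.0166) and -4.18 at 6 h (standard error 0.52, adjusted p = 2.36e-05). The 6 h call held without each array in turn, and the 2 h call was lost without 10% oxygen 2 h array 3 or 10% oxygen F21 array 3 (log2 -2.09 to -2.06, adjusted p = 0.066 to 0.0799). Against room air F21 lungs, where Col15a1 read 69.8, 69.9 and 63.0, the 6 h difference was log2 -2.17 (adjusted p = 0.0116).

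Col18a1 at 101882_s_at read 439, 101 and 298 at F21 and 168, 50.5 and 238 at 2 h. At 6 h it read 26.8, 42.9 and 63.7, below every F21 array (log2 -2.50, standard error 0.55, adjusted p = 0.00819). The second F21 array, the one with liver transcripts, was the lowest of its group for this gene, which is strong in liver. Without it the change was log2 -3.11 (adjusted p = 0.00203). At 101881_g_at the signals were 333, 309 and 526 at F21 and 170.1, 141 and 30.2 at 6 h (log2 -2.08, standard error 0.50, adjusted p = 0.0131), and the call was lost without 10% oxygen 6 h array 3 or 10% oxygen F21 array 3 (log2 -1.84 to -1.29, adjusted p = 0.0641 to 0.069). With room air F21 lungs as the baseline both probe sets turned to small differences above 0 (log2 0.08 and 0.52, adjusted p = 0.946 and 0.605).

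Serpinh1, Lama3 and Col6a3, which in room air were called at 12 h or 24 h, were called at 6 h in 10% oxygen. In room air too, their arrays at 2 h and 6 h lay below every F21 array. Serpinh1 read 715, 654 and 732 at F21, 406, 399 and 341 at 2 h and 292, 271 and 344 at 6 h, with no overlap at either time (log2 -1.22, standard error 0.25, adjusted p = 0.00404 at 6 h). Lama3 read 305, 508 and 444, 247, 201 and 227 and 174, 163 and 168 in the same order (log2 -1.28, standard error 0.26, adjusted p = 0.00374 at 6 h). Both 6 h calls held without each array and against the room air F21 lungs (log2 -1.51, adjusted p = 7.29e-04, and -1.16, adjusted p = 0.00811). Whether 10% oxygen changed the size of these falls was tested as an interaction, and no difference was called (log2 0.30, adjusted p = 0.871 for Serpinh1 and log2 0.51, adjusted p = 0.739 for Lama3 at 6 h). Col6a3 read 2545, 2543 and 2380.5 at F21, 1701, 1331 and 1422 at 2 h and 789.8, 1341 and 858 at 6 h (log2 -1.36, standard error 0.34, adjusted p = 0.0167 at 6 h), separate from F21 at both times. Its call was lost without 10% oxygen 6 h array 1 (log2 -1.21, adjusted p = 0.0744).

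Of 10 tested fibrillar collagen probe sets 4 fell at 6 h in 10% oxygen and 6 were not called, with changes from log2 -1.17 to 0.22 over the 10. Col1a1 at 94305_at read 2486, 3208 and 3425 at F21 and 1189, 1383 and 1447 at 6 h (log2 -1.17, standard error 0.28, adjusted p = 0.0115), and at 103709_at 1725, 2546 and 2302 and 948, 1557 and 1349.8 (log2 -0.78, standard error 0.21, adjusted p = 0.0275). These calls were lost respectively without 10% oxygen F21 array 3 (log2 -1.08, adjusted p = 0.0515) and without 10% oxygen 6 h array 1 or 10% oxygen F21 array 2 or 3 (log2 -0.74 to -0.58, adjusted p = 0.0925 to 0.151). Against room air F21 lungs the first turned to log2 0.25 (adjusted p = 0.624). Col1a2 at 101130_at read 1627, 1360.3 and 1551 and 896, 716 and 1011 (log2 -0.80, standard error 0.19, adjusted p = 0.0127), was lost without 10% oxygen 6 h array 2 (log2 -0.67, adjusted p = 0.0656), and its other probe set was not called (log2 0.22, adjusted p = 0.645). Col3a1 at 98331_at read 968, 863 and 773 and 439, 599 and 436 (log2 -0.83, standard error 0.19, adjusted p = 0.0113), with separate groups, and held without each array. Lama5 at 99931_at read 1076, 861 and 1352 and 641, 670.4 and 742 (log2 -0.66, standard error 0.19, adjusted p = 0.038), was lost without 10% oxygen 6 h array 1 or 2 or 10% oxygen F21 array 1 or 3 (log2 -0.66 to -0.49, adjusted p = 0.07 to 0.186), and turned to log2 0.08 (adjusted p = 0.839) against room air F21 lungs.

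Other falls were of dim probe sets. Fbn2 read 156, 106 and 212 at F21, 43.0, 63.0 and 65.9 at 2 h and 11.6, 92.4 and 16.1 at 6 h (log2 -2.56, standard error 0.69, adjusted p = 0.025). Fmod, fibromodulin, a proteoglycan of collagen fibrils, read 169, 122 and 387, 24.2, 33.7 and 11.5 and 25.9, 108 and 9.9 (log2 -3.24, adjusted p = 0.0172 at 2 h and log2 -2.72, adjusted p = 0.0257 at 6 h). In both the second 6 h array stayed high while the others were near the floor. The 6 h calls were lost respectively without 10% oxygen 6 h array 1 or 3 or 10% oxygen F21 array 1 or 3 (log2 -2.54 to -1.98, adjusted p = 0.0563 to 0.128) and without 10% oxygen 6 h array 1 or 3 or 10% oxygen F21 array 3 (log2 -2.60 to -1.91, adjusted p = 0.0766 to 0.134), and the 2 h call of Fmod without 10% oxygen 2 h array 3 or 10% oxygen F21 array 3 (log2 -2.81 to -2.77, adjusted p = 0.0748 to 0.0994). Col14a1, a fibril-associated collagen, read 161, 160.1 and 183 at F21 and 51.1, 12.3 and 130.2 at 6 h (log2 -1.95, adjusted p = 0.0258), and was lost without 10% oxygen 6 h array 2 or 10% oxygen F21 array 1, 2 or 3 (log2 -1.98 to -1.04, adjusted p = 0.0521 to 0.159). Lama2, the laminin alpha chain of muscle, read 93.1, 174 and 166 at F21, 20.1, 121 and 14 at 2 h and 128, 210.0 and 114 at 6 h. Its call at 2 h (log2 -2.10, adjusted p = 0.0252) came with overlapping groups and was lost without 10% oxygen 2 h array 1 or 3 or 10% oxygen F21 array 2 or 3 (log2 -1.97 to -1.49, adjusted p = 0.0859 to 0.139).

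At 6 h 3 probe sets rose. Spock2 read 276, 177 and 93.0 at F21, 355, 348 and 446 at 2 h and 628, 382 and 409 at 6 h, with both times after birth above F21 (log2 1.48, standard error 0.39, adjusted p = 0.023 at 6 h). Its call was lost without 10% oxygen 6 h array 1 or 10% oxygen F21 array 2 or 3 (log2 1.06 to 1.52, adjusted p = 0.0501 to 0.147). Against room air F21 lungs it was log2 1.75 (adjusted p = 0.00802). The dimmer elastin probe set, 92207_at, read 255, 87.3 and 264 at F21, 483, 634 and 448 at 2 h and 492, 482 and 408 at 6 h (log2 1.52, adjusted p = 0.0165 and log2 1.35, adjusted p = 0.0171). Its second F21 array was low, and the calls were lost without 10% oxygen 2 h array 2 or 10% oxygen F21 array 2 (log2 0.99 to 1.37, adjusted p = 0.0675 to 0.0859) at 2 h and without 10% oxygen 6 h array 1 or 2 or 10% oxygen F21 array 2 (log2 0.82 to 1.31, adjusted p = 0.0514 to 0.115) at 6 h. The brighter one, 92836_at, read 11447, 15627 and 12806, 19947, 22372 and 22824 and 18562, 21768 and 17292 and was separate from F21 at both times but not called (log2 0.72, adjusted p = 0.0632 and log2 0.54, adjusted p = 0.127). Col9a1, a type IX chain, read 109, 27.8 and 89.7 at F21 and 200.1, 183 and 191 at 6 h (log2 1.56, adjusted p = 0.0406), and was lost without 10% oxygen 6 h array 1, 2 or 3 or 10% oxygen F21 array 2 (log2 0.95 to 1.59, adjusted p = 0.0689 to 0.225). The summed signals of 4 cartilage markers, all dim, were 51, 52 and 85 at F21 and 165, 140 and 109 at 6 h in 10% oxygen. Their part in the rise of Col9a1 was not tested.

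Lungs of 10% oxygen were next set against room air lungs of the same age. Elastin, Lamb3, Lama5 and Col18a1 stood higher in 10% oxygen at more than 1 age or probe set, and Sparc and 1 probe set of Col1a2 lower at all 3 ages. At F21, 8 of 58 tested members were called, 6 higher and 2 lower (13.8%, against 7.13% of all, 2.51% higher and 4.62% lower). At 2 h 13 were called, 8 higher and 5 lower (22.4%, against 16.8% of all, 7.75% higher and 9.06% lower). At 6 h 6 were called, 2 higher and 4 lower (10.3%, against 5.80% of all, 2.25% higher and 3.55% lower). The share at 2 h is near that of all probe sets, so that it is no result about the members. The Gapdh 3' to 5' ratios of the 10% oxygen arrays were 1.21, 6.79 and 9.40 at F21, 3.01, 5.39 and 1.81 at 2 h and 1.37, 5.82 and 4.72 at 6 h, above every room air lung. With this ratio as a covariate, 1, 8 and 3 of the 58 members were called at F21, 2 h and 6 h. Of all 6930 probe sets, 171, 855 and 269 were called in these fits, so that the members' shares were close to those of all.

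Eln at 92836_at read 11447, 15627 and 12806 in 10% oxygen at F21 and 9258, 11432 and 8319 in room air, and was not called (log2 0.46, adjusted p = 0.186), with separate groups. At 2 h the signals were 19947, 22372 and 22824 against 9128, 8569 and 9089 (log2 1.28, standard error 0.21, adjusted p = 2.78e-04), and at 6 h 18562, 21768 and 17292 against 8570.5, 8539 and 7199 (log2 1.24, standard error 0.21, adjusted p = 0.00122). After birth every array of 10% oxygen lay above every room air array. Both calls held without each array and with the Gapdh ratio as a covariate (log2 1.11, adjusted p = 0.0052, and 1.08, adjusted p = 0.0148). Under quantile normalization the 2 h difference shrank to log2 0.50 (adjusted p = 0.0579). At 92207_at the 6 h difference was called as well (log2 1.18, adjusted p = 0.039) and was lost without any 1 of the 6 arrays (log2 0.93 to 1.37, adjusted p = 0.0528 to 0.166). Whether the change from F21 differed between oxygen levels was not called: the interaction for 92836_at, room air minus 10% oxygen, was log2 -0.82 at 2 h (95% interval -1.42 to -0.22, adjusted p = 0.242) and -0.78 at 6 h (-1.38 to -0.18, adjusted p = 0.442).

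Lamb3, the beta chain of laminin-332, was higher at 161188_f_at. Lungs of 10% oxygen read 122, 200.5 and 182 at F21 and 122, 169 and 171 at 2 h, against 50.0, 29.6 and 23.8 and 26.7, 16.2 and 22.1 in room air (log2 2.33, standard error 0.44, adjusted p = 0.00231 at F21 and log2 2.84, standard error 0.44, adjusted p = 1.76e-04 at 2 h). At 6 h the signals were 44.4, 87.9 and 117 against 44.6, 24.5 and 33.1 (log2 1.22, adjusted p = 0.1), and the groups overlapped. At F21 and 2 h all arrays of 10% oxygen were higher than all room air arrays, and neither call was lost without any array. With the Gapdh ratio as a covariate the F21 difference was log2 1.71 (adjusted p = 0.104) and the 2 h difference 2.30 (adjusted p = 0.00723). The other probe set, 92759_at, read 344, 439.8 and 405 against 203, 236 and 247 at 2 h (log2 0.79, adjusted p = 0.0433), a call lost without any 1 of the 6 arrays (log2 0.71 to 0.89, adjusted p = 0.0529 to 0.142), and was not called at F21 (log2 0.17, adjusted p = 0.761). Lama5 at 99931_at read 1076, 861 and 1352 against 524, 655 and 782 at F21 (log2 0.74, adjusted p = 0.0193) and 692, 984 and 995 against 583, 484 and 479 at 2 h (log2 0.78, adjusted p = 0.00741), separate at both ages. Its F21 call was lost without 10% oxygen F21 array 3 or room air F21 array 1 or 2 (log2 0.58 to 0.75, adjusted p = 0.0541 to 0.126). With the covariate neither was called (log2 0.64, adjusted p = 0.182, and 0.69, adjusted p = 0.0614). Summed lung epithelial markers at 2 h were 47190 to 56575 in 10% oxygen and 30294 to 35908 in room air. At F21 the order was the other way, with 22960 to 45828 in 10% oxygen and 51899 to 67414 in room air. The part of these markers in the laminin differences was not tested.

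Col18a1 was higher in 10% oxygen at F21 and 2 h at 2 of its probe sets. At 101882_s_at the room air lungs read 24.8, 33.1 and 30.2 at F21 and 29.3, 26.7 and 19.8 at 2 h, against 439, 101 and 298 and 168, 50.5 and 238 in 10% oxygen (log2 3.02, standard error 0.55, adjusted p = 0.00185 at F21 and log2 2.34, standard error 0.55, adjusted p = 0.0054 at 2 h). By 6 h the difference was log2 0.68 (adjusted p = 0.503). At 101881_g_at it was log2 2.15 at F21 (adjusted p = 0.0098) and 2.45 at 2 h (adjusted p = 0.00184). At both probe sets every array of 10% oxygen lay above every room air array at F21 and 2 h. The F21 call of 101881_g_at was lost without 10% oxygen F21 array 3 or room air F21 array 1 (log2 1.91 to 2.04, adjusted p = 0.0533 to 0.0556), and at 99638_at no difference was called (log2 0.68, adjusted p = 0.193 at F21). Livers, where Col18a1 is strong, read 499 to 914 at 101882_s_at. Without the F21 array that carried liver transcripts the F21 differences were larger, at log2 3.63 (adjusted p = 5.36e-04) and 2.30 (adjusted p = 0.0189). With the Gapdh ratio as a covariate 101882_s_at was the member still called at F21 (log2 3.66, adjusted p = 0.00788).

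Col15a1 read 212, 264 and 358 in 10% oxygen and 69.8, 69.9 and 63.0 in room air at F21 (log2 2.01, standard error 0.52, adjusted p = 0.0193), without overlap. The call was lost without 10% oxygen F21 array 3 or room air F21 array 1, 2 or 3 (log2 1.81 to 2.03, adjusted p = 0.0524 to 0.084), and with the covariate (log2 1.24, adjusted p = 0.344). At 2 h and 6 h its groups overlapped. The interaction was log2 2.22 at 2 h (95% interval 0.71 to 3.72, adjusted p = 0.206) and 3.08 at 6 h (1.58 to 4.58, adjusted p = 0.203). Col1a1 at 94305_at read 2486, 3208 and 3425 against 973, 1517 and 962 at F21 (log2 1.42, standard error 0.28, adjusted p = 0.00283), separate and held without each array, while 103709_at was not called (log2 0.42, adjusted p = 0.253). Col6a2, a chain of type VI collagen, read 1768, 1891 and 2073 against 1014, 533 and 437 at 2 h (log2 1.63, standard error 0.38, adjusted p = 0.00531), also separate and held without each array. Its F21 arrays in 10% oxygen ran from 515 to 2522.

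Sparc was lower in 10% oxygen at each age. It read 328, 583 and 352 against 660.4, 644 and 824 at F21 (log2 -0.79, standard error 0.22, adjusted p = 0.0293), 412, 549 and 526 against 855, 965 and 758 at 2 h (log2 -0.80, standard error 0.22, adjusted p = 0.0161) and 609, 509 and 378 against 1029, 841 and 694 at 6 h (log2 -0.79, standard error 0.22, adjusted p = 0.0373). The groups were separate at all 3 ages. The F21 call was lost without 10% oxygen F21 array 1 or 3 or room air F21 array 1, 2 or 3 (log2 -0.86 to -0.64, adjusted p = 0.0565 to 0.126), but without the second 10% oxygen array it was log2 -1.05 (adjusted p = 0.00726). The later calls were lost without 10% oxygen 2 h array 1 or room air 2 h array 2 (log2 -0.71 to -0.67, adjusted p = 0.0615 to 0.0741) at 2 h and without 10% oxygen 6 h array 2 or 3 or room air 6 h array 1 or 2 (log2 -0.81 to -0.60, adjusted p = 0.0649 to 0.161) at 6 h. With the Gapdh ratio as a covariate none of the 3 was called (log2 -0.84 at F21, -0.84 at 2 h and -0.83 at 6 h, adjusted p = 0.137, 0.0528 and 0.0963).

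The laminin chain Lamc1 was lower in 10% oxygen than in room air at 2 h and 6 h, and Lamb1 at 6 h at 1 of its 2 probe sets. Lamc1 at 161706_f_at read 138, 302 and 161 against 275, 397 and 484 at 2 h (log2 -0.99, standard error 0.30, adjusted p = 0.0255), with overlap, and 167, 102 and 202 against 451, 331 and 385 at 6 h (log2 -1.35, standard error 0.30, adjusted p = 0.0109), without. These calls were lost without 10% oxygen 2 h array 1 or 3 or room air 2 h array 2 or 3 (log2 -0.95 to -0.77, adjusted p = 0.0672 to 0.132) at 2 h and without 10% oxygen 6 h array 2 or room air 6 h array 1 (log2 -1.24 to -1.07, adjusted p = 0.0519 to 0.0583) at 6 h, and both held with the covariate. Lamb1 at 162263_f_at read 133, 115 and 221 against 270.4, 286 and 326 at 6 h (log2 -0.97, adjusted p = 0.0164), without overlap, and was lost without 10% oxygen 6 h array 2 or room air 6 h array 3 (log2 -0.89 to -0.77, adjusted p = 0.0582 to 0.0661). Its other probe set was not called (log2 0.12, adjusted p = 0.87).

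**Figure D3:**
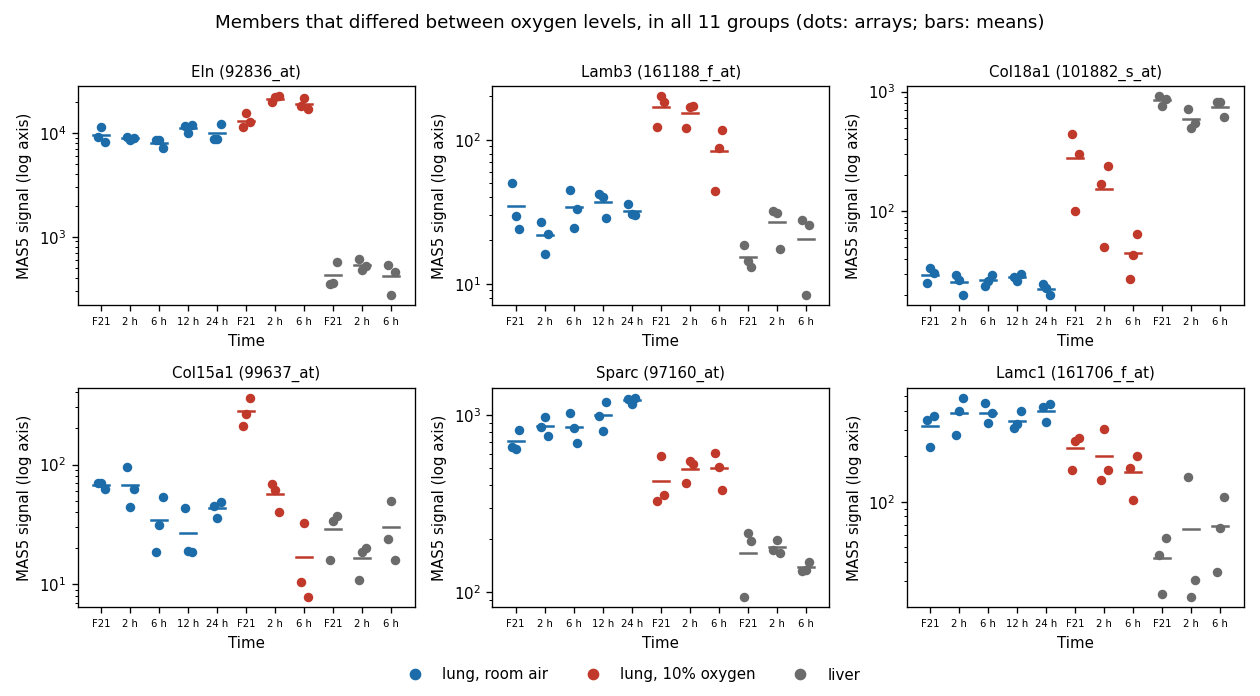
Signals on a log axis of 6 member probe sets in the 11 groups of lung and liver, with dots for arrays. For each gene the probe set with the largest difference between oxygen levels at the same age was drawn. Elastin is higher in 10% oxygen after birth, Lamb3 and Col18a1 are higher at F21 and 2 h, Col15a1 is high in F21 lungs of 10% oxygen, and Sparc and Lamc1 lie lower in 10% oxygen.

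Some differences between oxygen levels held at 1 probe set of a gene and not at another. Col1a2 was lower in 10% oxygen at 161156_r_at, at 545, 282 and 400.4 against 814, 1042 and 797 at F21 (log2 -1.15, adjusted p = 0.00358), and also at 2 h (log2 -0.69, adjusted p = 0.0407) and 6 h (log2 -0.87, adjusted p = 0.027). At 101130_at the differences were log2 0.29, 0.10 and -0.08 with none called. The 2 h and 6 h calls of 161156_r_at were lost without 10% oxygen 2 h array 1 or 2 or room air 2 h array 1 or 3 (log2 -0.72 to -0.55, adjusted p = 0.0743 to 0.181) and without 10% oxygen 6 h array 2 or 3 or room air 6 h array 1 or 3 (log2 -0.92 to -0.71, adjusted p = 0.0612 to 0.115), and none of the 3 was called with the covariate. Col13a1, a transmembrane collagen, was called higher at 102261_f_at (log2 0.92, adjusted p = 0.0477) and lower at 102262_r_at (log2 -1.48, adjusted p = 0.0379) at 2 h, so that no direction is given for the gene. These were lost respectively without 10% oxygen 2 h array 2 or 3 or room air 2 h array 1, 2 or 3 (log2 0.78 to 1.0, adjusted p = 0.0672 to 0.163) and without 10% oxygen 2 h array 1 or 3 or room air 2 h array 1, 2 or 3 (log2 -1.51 to -1.24, adjusted p = 0.0801 to 0.127). Bgn, biglycan, was lower at 162347_f_at at 2 h (log2 -0.90, adjusted p = 0.00985), lost without room air 2 h array 3 (log2 -0.82, adjusted p = 0.051), and of the opposite sign at 96049_at (log2 0.53, adjusted p = 0.127).

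No member passed the test for a different birth change in room air and 10% oxygen. In limma 0 of 58 were called at 2 h, where 0.476% of all probe sets were, and 0 at 6 h, where 0.0144% were. At an unadjusted p under 0.05 there were 9 of the 58 members at each time, against 13.1% of all probe sets at 2 h and 8.59% at 6 h. The median over the members, room air minus 10% oxygen, was log2 0.19 at 2 h and 0.32 at 6 h, and 0.01 and 0.00 over all probe sets tested. These values share the F21 arrays of the comparisons above, and the intervals given for Eln and Col15a1 show how wide a difference they leave. A missed threshold does not show that the changes were alike.

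**Figure D4:**
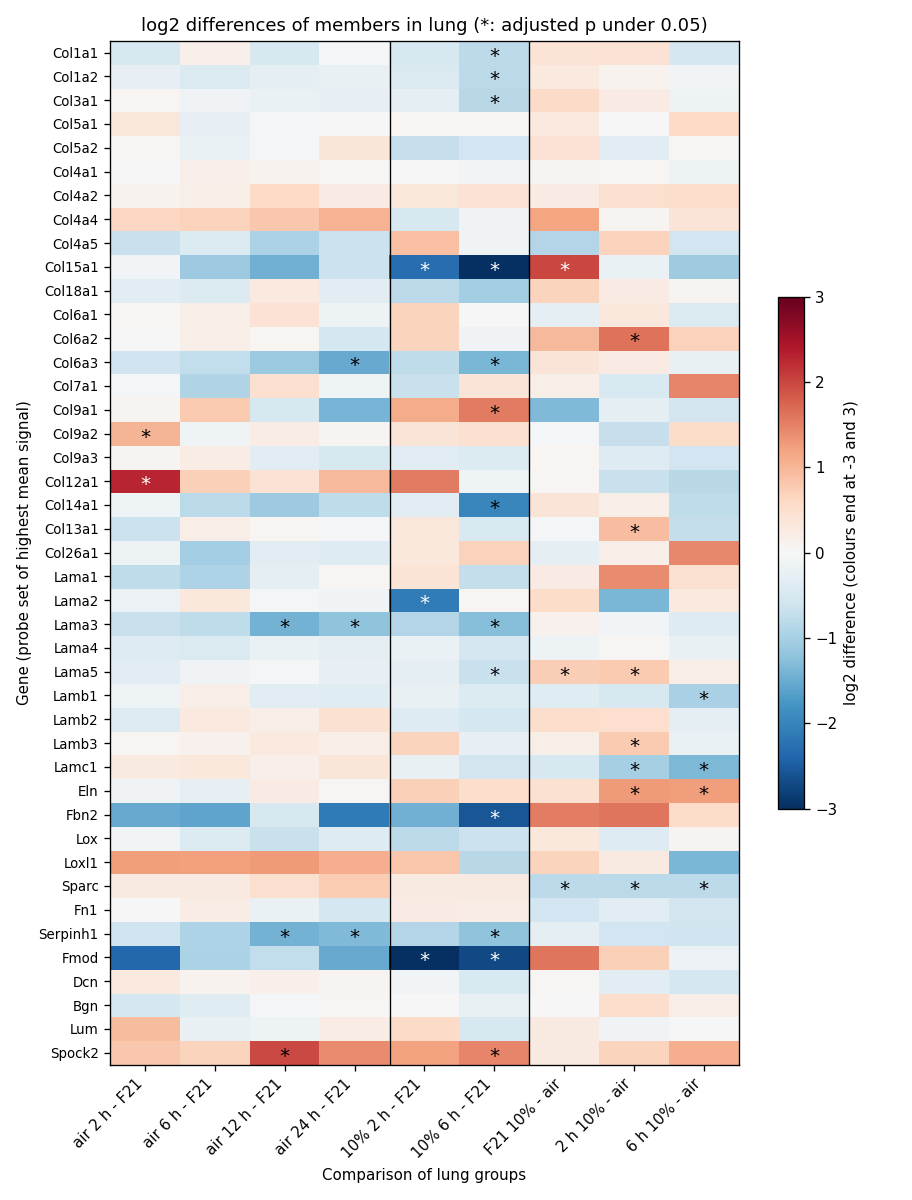
Log2 differences of 43 member genes (1 probe set per gene) in the 9 lung comparisons, as colours that end at -3 and 3, with 2 values beyond, and a star where limma's adjusted p was under 0.05. Stars are sparse in the room air columns and crowd in the column of 10% oxygen at 6 h, where most are falls.

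In liver, limma called none of the 36 tested members at 2 h (0.914% of all 5691 probe sets were) or at 6 h (1.85%), and the methods' t-test called 0 at both times. At an unadjusted p under 0.05 there were 6 of 36 at 2 h and 0 at 6 h, against 12.1% and 13.4% of all probe sets. Col1a1 at 103709_at read 321, 298 and 362 at F21, 377, 422 and 449.6 at 2 h and 439, 258 and 298 at 6 h. Col18a1 at 101882_s_at read 914, 758 and 866, 709.7, 499 and 548 and 814, 812 and 613, with all 2 h arrays under all F21 arrays (log2 -0.54, adjusted p = 0.206). Fn1 read 1128, 1388 and 1119.8, 1350.5, 979 and 984 and 968, 1019.6 and 1052. Serpinh1, which fell in lung, read 85.8, 6.1 and 70.9 at 6 h in liver, where the second array stood far below the others (log2 -1.14, adjusted p = 0.483).

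The birth change was also compared between lung and liver. At 2 h 1 of 61 members was called, lower in lung (1.64%, against 0.930% of all 7636 probe sets and 0.694% lower), and at 6 h limma called none (0.196% of all). At an unadjusted p under 0.05 there were 13 and 8 of the 61 members at 2 h and 6 h, against 12.5% and 8.67% of all probe sets. The call was Lama5 at 99931_at. Its lungs read 524, 655 and 782 at F21 and 583, 484 and 479 at 2 h, and its livers 19.4, 15.9 and 31.9 and 84.5, 35.6 and 117. Lung arrays overlapped between the ages, whereas all 2 h livers were above all F21 livers at a dim level. The difference, lung minus liver, was log2 -2.05 (standard error 0.52, 95% interval -3.11 to -0.98, adjusted p = 0.0485). It was 0.01 at the second probe set (adjusted p = 0.998). The call was lost without room air 2 h array 1, 2 or 3 or room air F21 array 1, 2 or 3 or liver 2 h array 1 or 3 or liver F21 array 1 or 2 (log2 -2.20 to -1.69, adjusted p = 0.0589 to 0.152).

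Genes that make, carry or bind these fibers were counted by list. Each gene was given by its brightest probe set, and further ones, as of P4hb and Itgb1, are not reported. Fits with an array left out or with the Gapdh ratio as a covariate were kept for members only. The calls in these lists were thus not checked in those ways. Of procollagen enzymes and chaperones 11 were tested in lung and none was called in room air. In 10% oxygen at 6 h, Crtap, a subunit of the prolyl 3-hydroxylase complex, fell by 0.96 on the log2 scale (adjusted p = 0.0228). P4hb, protein disulfide isomerase and the beta subunit of prolyl 4-hydroxylase, was lower in 10% oxygen than in room air at F21, 2 h and 6 h (log2 -1.31, -1.23 and -1.34, adjusted p = 0.0285, 0.0229 and 0.0303). Its probe set 161926_r_at read 507.2, 393.4 and 204.1 at F21 in 10% oxygen and 1084.9, 817.1 and 701.7 in room air, without overlap. Bmp1, the procollagen C-proteinase, was higher there (log2 1.43, adjusted p = 0.00479).

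Of microfibril and elastic fiber accessory genes 8 were tested in lung, and none was called in room air. Ltbp4, a latent TGF-beta binding protein needed for elastic fiber assembly, was higher in 10% oxygen at F21 (1216.1, 779.8 and 766.9 against 383.2, 482.7 and 334.0), 2 h and 6 h (log2 1.19, 0.90 and 0.98, adjusted p = 0.00278, 0.00932 and 0.0147). The F21 arrays did not overlap. Fbln2 was higher in 10% oxygen at 2 h (log2 1.23, adjusted p = 0.0187), and Fbln1 fell at 6 h in 10% oxygen (log2 -0.98, adjusted p = 0.0113). At F21, 5 of 9 tested genes of this list were higher in lung than in liver, where 16% of all probe sets tested were, Mfap4 by log2 5.97 and Mfap2 by 3.72 (adjusted p = 8.29e-13 and 7.15e-10), and 1 was lower, Vtn, the plasma protein vitronectin (log2 -8.54, adjusted p = 1.09e-13).

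Of 9 basement membrane accessory genes, Tinagl1, a secreted matrix glycoprotein, rose at 12 h in room air (log2 1.60, adjusted p = 0.044) and at 6 h in 10% oxygen (1.39, adjusted p = 0.0367). Its arrays did not overlap F21 in room air at 12 h, but overlapped it at 6 h in 10% oxygen. In the same list, 6 genes were higher in lung than liver at F21 (against the same 16%), led by Npnt, the integrin ligand nephronectin (log2 5.10, adjusted p = 2.21e-13). Smoc1 was lower in lung (log2 -3.19, adjusted p = 2.21e-04), where 11.9% of all probe sets were lower. Of 12 integrins and collagen receptors tested, Sdc4, syndecan-4, fell at 12 h in room air (log2 -1.08, adjusted p = 0.0276). Itgb1, the beta chain of most collagen and laminin receptors, was lower in 10% oxygen at 2 h (742.2, 807.9 and 536.5 against 2066.3, 2351.4 and 1940.1) and 6 h (log2 -1.62 and -1.65, adjusted p = 0.00215 and 0.00652). Among other matricellular genes, Ccn2, connective tissue growth factor, rose at 2, 6, 12 and 24 h in room air (log2 1.35, 1.92, 1.34 and 1.89, adjusted p = 0.0217, 0.00442, 0.044 and 0.00903). It read 117.3, 112.8 and 203.6 at F21 and 556.5, 532.6 and 489.0 at 6 h. All 6 h arrays lay above all F21 arrays. Ccn1 rose at 2 h (log2 2.16, adjusted p = 0.0375). The other 16 of the 18 genes tested in that list were not called at 2 h, where 4.24% of all probe sets tested were. Of 16 matrix proteases and inhibitors tested in lung none was called in room air. At 2 h, 3 were lower in 10% oxygen, Timp1, Ctsl and Serpinf1 (log2 -0.85, -0.79 and -2.05, adjusted p = 0.044, 0.0415 and 0.0235). Of all probe sets tested, 16.8% were called in that comparison and 9.06% were lower. The 3 called of 16 lie near the share called, so that they are no result about the list.

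Of the 12 tested integrins and receptors, 1 was called at 2 h and 3 at 6 h in 10% oxygen against its own F21 lungs, next to 2.66% and 6.31% of all probe sets tested. Itga3, the alpha chain of a laminin-binding integrin, rose at 2 h and 6 h (log2 1.65 and 1.74, adjusted p = 0.0419 and 0.0175) and was lower at F21 than in room air (log2 -1.53, adjusted p = 0.0332). The Itga3 arrays overlapped at 2 h and in the F21 comparison, but not at 6 h. At 6 h Sdc1, syndecan-1, rose (log2 1.36, adjusted p = 0.0113), and Itgb5 fell (log2 -1.79, adjusted p = 0.0351). The Itgb5 arrays overlapped, at 41.2, 45.9 and 230.2 against 216.9, 229.3 and 358.2 at F21. Vcan, the large proteoglycan versican, fell at 2 h and 6 h (log2 -2.77 and -2.60, adjusted p = 0.0436 and 0.0369). Ccn2 rose at 6 h (log2 1.16, adjusted p = 0.0369) and Ccn1 at 2 h (log2 2.18, adjusted p = 0.0478). Matn4, a matrilin, fell at 6 h with overlapping arrays (log2 -1.17, adjusted p = 0.0153).

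Between oxygen levels at the same age, Sdc4 was lower in 10% oxygen at F21, 2 h and 6 h (log2 -1.09, -1.37 and -1.98, adjusted p = 0.00834, 7.35e-04 and 8.80e-05). Matn2 was higher at 2 h and 6 h (log2 1.45 and 1.90, adjusted p = 0.0186 and 0.00965), as were Tnc, tenascin-C, at F21 (log2 1.48, adjusted p = 0.0387) and Matn4 at 2 h (log2 1.37, adjusted p = 0.00222). Itgav, Ntn1, Sec23a and Fkbp9 were lower at 2 h (log2 -1.27, -1.98, -1.01 and -0.91, adjusted p = 0.00489, 0.0131, 0.0271 and 0.0136). At F21, lung was higher than liver for 3 of 11 procollagen enzymes and chaperones, 5 of 12 integrins and receptors, 9 of 19 other proteoglycans and matricellular genes and 5 of 18 proteases and inhibitors, and lower for 0, 0, 1 and 3. Of all probe sets tested, 16% were higher in lung and 11.9% lower (28.0% called), so that the 3 of 11 and 5 of 18 lay not far above that share.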

How the data were processed

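RNA of whole lung and liver was hybridised to 33 MGU74Av2 arrays, 3 in each of 11 groups. The authors deposited MAS5 signal values per probe set, made with Microarray Suite and scaled to a target intensity of 100, and no further normalization was applied here. The scale carries no depth, and the number of arrays limits the precision. Groups were taken from the sample labels. Signals under 10 were set to 10 and log2 was taken. Probe sets in the top 40% of their array on at least 3 arrays were fitted with limma 3.58.1 in R 4.3.3 (all lungs, all livers, or both, with a trend in the variance), with Benjamini-Hochberg adjustment over all probe sets tested and a threshold of 0.05. All tests were two-sided. The fit was tested on simulated data. Differences were also refitted with another floor, pseudocount, filter, quantile normalization, array weights, the Gapdh ratio as a covariate, only the groups compared, the replicate block, the methods' t-test, each array left out and, chosen after seeing the data, only lung arrays of the same oxygen level.

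The members, the accessory lists and the tests were chosen with earlier results of these data known. The text names every member gene called in a comparison within lung, part of those called between lung and liver, the main structural genes whether called or not, genes whose probe sets disagreed, and genes of the accessory lists among those called. For genes with several probe sets the brightest over all arrays came first. Promoter letters are from RefSeq on GRCm38.p6.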

Additional observations from a re-analysis of the deposited data

Results flagged for a closer look

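Lama5 at 99931_at differed between organs in its change from F21 to 2 h, by a test of that difference (lung minus liver, log2 -2.05, limma's adjusted p = 0.0485). The lung change was log2 -0.33 and lay within overlapping arrays, while the 2 h livers were above the F21 livers at signals of 15.9 to 117. The second probe set of the gene gave 0.01, and the call was lost in 10 of 12 fits that left out an array.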

How the results depend on the processing

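Of 1731 refits of 100 called differences, 1351 kept the direction and the call, 376 kept the direction and lost the call and 4 reversed. The reversals came at 6 h in 10% oxygen with the room air F21 lungs as baseline, for Col18a1 101881_g_at (log2 0.076) and 101882_s_at (0.52), Col1a1 94305_at (0.25) and Lama5 99931_at (0.084). The causes of the changes below were not tested.

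The counts of called members moved by over 1.5 times as follows, each with the number called over all probe sets tested in brackets. That number is out of 6930 where no other total is given. With array weights they were 8 (1121) at 2 h, 2 (318) at 6 h, 5 (305) at 12 h and 7 (256) at 24 h in room air. In the same fits 0 (55) at 2 h and 2 (101) at 6 h were called in 10% oxygen, 3 (258) between oxygen levels at 6 h and 2 (283 of 7636) for lung minus liver at 2 h. In room air, the 8 at 2 h and 2 at 6 h of 58 tested were not above the share of all probe sets. With the groups compared only, the counts were 1 (149) at 6 h and 0 (0) at 24 h in room air and 2 (51) at 2 h and 5 (85) at 6 h in 10% oxygen. They were 1 (65) between oxygen levels at 6 h and 0 (111 of 7636) for lung minus liver at 2 h. The methods' t-test at its own threshold called 6 (464) at 2 h and 3 (302) at 6 h in room air, 7 (217) at 6 h in 10% oxygen and 2 (338) between oxygen levels at 6 h. After Benjamini-Hochberg adjustment it called 1 (22) at 2 h, 0 (0) at 12 h and 0 (0) at 24 h in room air and 0 (0) at 2 h and 0 (0) at 6 h in 10% oxygen. Between oxygen levels it then called 0 (3), 2 (99) and 0 (0) at F21, 2 h and 6 h. With the Gapdh ratio as a covariate 1 (171), 8 (855) and 3 (269) were called between oxygen levels and 0 (81 of 7636) for lung minus liver at 2 h. Quantile normalization gave 1 (68) at 6 h in room air and 7 (214) at 2 h in 10% oxygen. Without a filter 1 (22 of 12422) was called at 24 h in room air and 0 (48 of 12422) for lung minus liver at 2 h. There a pseudocount of 16 also gave 0 (80 of 7636). The filter on the top 30% gave 5 (470 of 3727) between oxygen levels at F21. With room air F21 lungs as baseline 7 (376) were called at 2 h and 9 (520) at 6 h in 10% oxygen. With lung arrays of the same oxygen level only, chosen after seeing the data, these were 0 (36) and 6 (133).

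Leaving out each array gave 0 to 2, 0 to 0, 2 to 3 and 0 to 3 calls at 2, 6, 12 and 24 h in room air, and 1 to 9 and 9 to 15 at 2 h and 6 h in 10% oxygen. Between oxygen levels it gave 4 to 9, 8 to 12 and 2 to 6, for the interactions 0 to 1 and 0 to 0, in liver 0 to 0 at both times, between the organs at F21 39 to 41, and for lung minus liver 0 to 1 at both times. The room air count at 24 h fell to 0 without 24 h array 3 or F21 array 1 or 3. Counts over all probe sets are not reported here for these fits or for the replicate block.

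Replicate numbers did not pair the samples (r of deviations from -0.15 to 0.132, over 0.1 in 1 of 24 pairs). With the replicate block, 3, 0, 3 and 3 members were called in room air, 5 and 18 in 10% oxygen, 9, 13 and 6 between oxygen levels, 42 between the organs and 1 for lung minus liver at 2 h, and 99 of 100 calls were kept, the exception being Lamb3 92759_at at 2 h.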
